A study of Mus musculus with 9 samples.

Results

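The genes described here encode the standard subunits of the proteasome, the protease complex that degrades ubiquitin-tagged proteins in the cytosol and nucleus. They were taken by name: protein-coding genes whose symbol is Psma, Psmb, Psmc or Psmd followed by a number, without the 3 immunoproteasome genes Psmb8, Psmb9 and Psmb10, and present in all 4 deposited tables. This gave 35 genes of 29386 in the tables, of which 17996 stand in all 4. They are 8 genes of the 20S alpha ring (Psma1 to Psma8), 7 of the 20S beta ring (Psmb1 to Psmb7), 6 of the 19S ATPases (Psmc1 to Psmc6) and 14 of the 19S non-ATPases (Psmd1 to Psmd14), on 16 chromosomes. Psmb11 was listed in 1 experiment only, with 2 counts in 4-OHT cells and 5 in ETOH cells, and is no member. Psmc3ip, whose symbol begins like a member but which encodes a meiotic recombination factor and no subunit, was left out.

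In the 20S core, stacked alpha and beta rings enclose the proteolytic sites, which sit on Psmb5 (chymotrypsin-like), Psmb6 (caspase-like) and Psmb7 (trypsin-like). The 19S cap recognises ubiquitin, removes it and unfolds the substrate with its ring of ATPases. Transcription of the subunit genes is raised together when proteasome activity falls short, through NFE2L1, a factor held at the endoplasmic reticulum until it is processed, and in brown fat this route is known to accompany heat production in the cold.

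The study measured RNA in 9 mouse libraries of 3 separate experiments on Setdb1, the gene of an enzyme that places a repressive methyl mark on histone H3. In brown adipose tissue (BAT), 2 Setdb1 AKO mice (Setdb1 fl/fl; Adipoq-Cre+) were set against 2 control mice (Setdb1 fl/fl; Adipoq-Cre-). The floxed allele is thus in both groups and Cre, driven by an adipocyte promoter, in the AKO group alone, so Cre itself and the deletion cannot be told apart, and other cells of the tissue keep Setdb1. In primary brown adipocytes, 2 libraries transfected with siSetdb1 were set against 1 library with the control siNC, and whether both siSetdb1 libraries received the same siRNA is not stated. The last experiment compared 1 library of Setdb1 flox/flox; Rosa26Cre-ERT2 primary brown adipocytes given 4-hydroxytamoxifen (4-OHT, 1 μM), which activates the Cre, with 1 library of the same kind of cells given ethanol (ETOH). The 4-OHT libraries therefore differ in the drug, in active Cre and in the deletion together. The labels give no age, sex or housing of the mice, do not explain the prefix TN_CE of the BAT titles, and do not say that replicates of cells came from separate cultures, so the spread behind a p-value is that between libraries and may be technical.

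Libraries held 15979479 to 16940622 reads on genes in BAT, 17593798 to 18468154 in the siRNA experiment, and 30176359 in 4-OHT and 29911734 in ETOH. Setdb1 was 156 and 191 normalised counts in AKO BAT, against 455 and 473 in control BAT (log2 fold change -1.42, adjusted p = 0.0216, limma), a call that was lost without control library 1 (0.225), without control library 2 (0.230) and without a filter on low values (0.206). It was 371 and 399 in siSetdb1 cells, against 784 in siNC cells (-1.02, adjusted p = 0.0526), which missed the threshold in limma and passed it in edgeR and DESeq2. It was 620 counts in 4-OHT cells, against 1070 in ETOH cells (log2 ratio -0.74). Ucp1, the uncoupling protein that defines brown fat, was at 104610 and 62875 normalised counts in AKO BAT, against 107183 and 88048 in control BAT, and at 8735 counts in 4-OHT cells, against 8133 in ETOH cells. Col1a1, a collagen gene of fibroblasts, was abundant in that experiment (248082 counts in 4-OHT cells, 261796 in ETOH cells). A normalised count here is the count of reads on a gene times 1 factor per library, as the authors scaled it.

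Promoter sequence is shown for 4 subunit genes. Psmb5 and Psmb6 are 2 of the 3 proteolytic subunits, and no window was matched for the remaining one, Psmb7. Psmd14 and Psmd8 had the most positive and the most negative fitted change in BAT. These 4 do not stand for all subunits, whose share with the marked letters is given below. The stretches are RefSeq sequence of GRCm38.p6, 5′ to 3′ on the strand of the gene, and end before both the RefSeq and the GENCODE start of the gene. Capitals mark TGACNNNGC, the letters of the antioxidant response element, to which NFE2L1 is known to bind with a small MAF partner. Psmb5 is read from chr14:54618023-54618245 on the minus strand, Psmb6 from chr11:70525107-70525356 on the plus strand, Psmd14 from chr2:61711444-61711693 on the plus strand and Psmd8 from chr7:29180702-29180923 on the minus strand.
Psmb5: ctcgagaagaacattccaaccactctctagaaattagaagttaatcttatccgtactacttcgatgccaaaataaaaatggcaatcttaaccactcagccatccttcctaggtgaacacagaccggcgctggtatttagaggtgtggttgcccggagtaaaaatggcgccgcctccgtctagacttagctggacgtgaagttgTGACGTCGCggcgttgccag
Psmb6: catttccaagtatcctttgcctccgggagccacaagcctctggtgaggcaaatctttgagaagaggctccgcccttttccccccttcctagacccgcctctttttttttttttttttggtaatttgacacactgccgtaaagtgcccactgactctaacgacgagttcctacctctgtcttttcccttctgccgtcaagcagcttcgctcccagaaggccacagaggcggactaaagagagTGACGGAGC
Psmd14: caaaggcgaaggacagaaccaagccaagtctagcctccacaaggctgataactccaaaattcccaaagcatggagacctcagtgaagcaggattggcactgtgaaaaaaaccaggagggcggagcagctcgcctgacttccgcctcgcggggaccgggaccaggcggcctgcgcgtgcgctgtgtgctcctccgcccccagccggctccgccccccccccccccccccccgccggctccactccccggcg
Psmd8: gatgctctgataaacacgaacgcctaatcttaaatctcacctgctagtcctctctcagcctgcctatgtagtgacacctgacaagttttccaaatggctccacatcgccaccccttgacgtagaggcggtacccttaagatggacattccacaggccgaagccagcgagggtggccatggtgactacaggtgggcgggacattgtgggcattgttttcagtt
In Psmb5 the letters end 38 bases before the RefSeq start, in Psmb6 they end at it, and the Psmd14 and Psmd8 stretches hold none.

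RefSeq promoter windows were matched for 28 of the 35 genes. Those of Psma8, Psmb1, Psmb2, Psmb7, Psmc3, Psmd3 and Psmd7 were not used here. On either strand of the 250 bases before the start, TGACNNNGC stood in 5 of the 28 (Psmb5, Psmb6, Psmc6, Psmd9 and Psmd12), or 17.9%, beside 11.5% of 27025 genes with a window. CCAAT, the letters of the NF-Y motif, stood in 11 of 28, or 39.3%, beside 37.5%. GGGCGG, the letters of the SP1 motif, stood in 17 of 28, or 60.7%, beside 35.4%. The 3 motifs were searched independently, and a base could count in more than 1. A match is a run of letters and not a site shown to be bound. The 5 genes with TGACNNNGC spanned -0.10 (Psmd9) to 0.22 (Psmd12) on the log2 scale in BAT. They spanned -0.17 (Psmd9) to 0.07 (Psmc6) in the siRNA experiment, and -0.01 (Psmd9) to 0.48 (Psmb5) in the 4-OHT experiment.

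Of the 35 genes, 34 passed the filters on low values in every experiment. The remaining member, Psma8, a testis form of an alpha subunit, was near 0 in every library: 1 read in each AKO and 0 in each control BAT library, 3 and 0 in siSetdb1 and 2 in siNC, and 6 counts in 4-OHT and 7 in ETOH. Neither BAT nor these cells thus gave a level of Psma8 that could be compared.

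Although the subunits assemble in fixed numbers, their transcripts were far from equal per length (the levels by library are plotted for 34 genes). In TPM, a length-corrected share of a library computed here from reads and the deposited gene length, Psmb5 had the highest level in every group. It was at 344 and 321 TPM in AKO BAT, 379 and 322 in control BAT, 493 and 576 in siSetdb1 cells, 505 in siNC cells, 574 in 4-OHT cells and 444 in ETOH cells. Psma6, an alpha ring subunit, came next in every group, at 307 and 287 TPM in AKO BAT and 308 and 281 in control BAT. The ranges of Psmb5 and Psma6 did not overlap in either BAT group.

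At the other end stood the genes of the Psmd series whose products help to assemble the 19S base and leave the finished particle. Psmd9 was at 5.10 and 5.73 TPM in AKO BAT and 6.36 and 6.20 in control BAT, the lowest of the 34. Psmd5 was at 6.58 and 7.49 TPM in AKO BAT and 7.04 and 7.62 in control BAT, and Psmd10 (gankyrin) at 19.4 and 26.1 in AKO BAT and 20.4 and 20.1 in control BAT. Psmd9, Psmd5 and Psmd10 held ranks 34, 33 and 32 in AKO BAT and in control BAT. Among the 3 proteolytic subunits, Psmb7 was the lowest per length, at 64.1 and 71.0 TPM in AKO BAT and 79.5 and 67.6 in control BAT. Psmb6 stood between, at 179 and 160 TPM in AKO BAT and 187 and 181 in control BAT. The coefficient of variation over the 35 genes, averaged over the 9 libraries, was 74.2%. That figure includes the near-silent Psma8 and the chaperones. Over the 31 genes without Psma8, Psmd5, Psmd9 and Psmd10 it ran from 57.3% (siSetdb1 library 1) to 69.9% (AKO BAT library 1). The deposited length joins all exons of a gene, so a gene with many long isoforms gets too low a value, and the order across genes carries this limit. Psmb5 has the shortest length of the members (899 bases), and Psmd9 (7248) and Psmd5 (7230) are among the longest, while Psmd10 (1469) is not. By reads, Psmd10 (201 to 250 in BAT libraries) stood below Psmd9 (271 to 318).

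**Figure D1:**
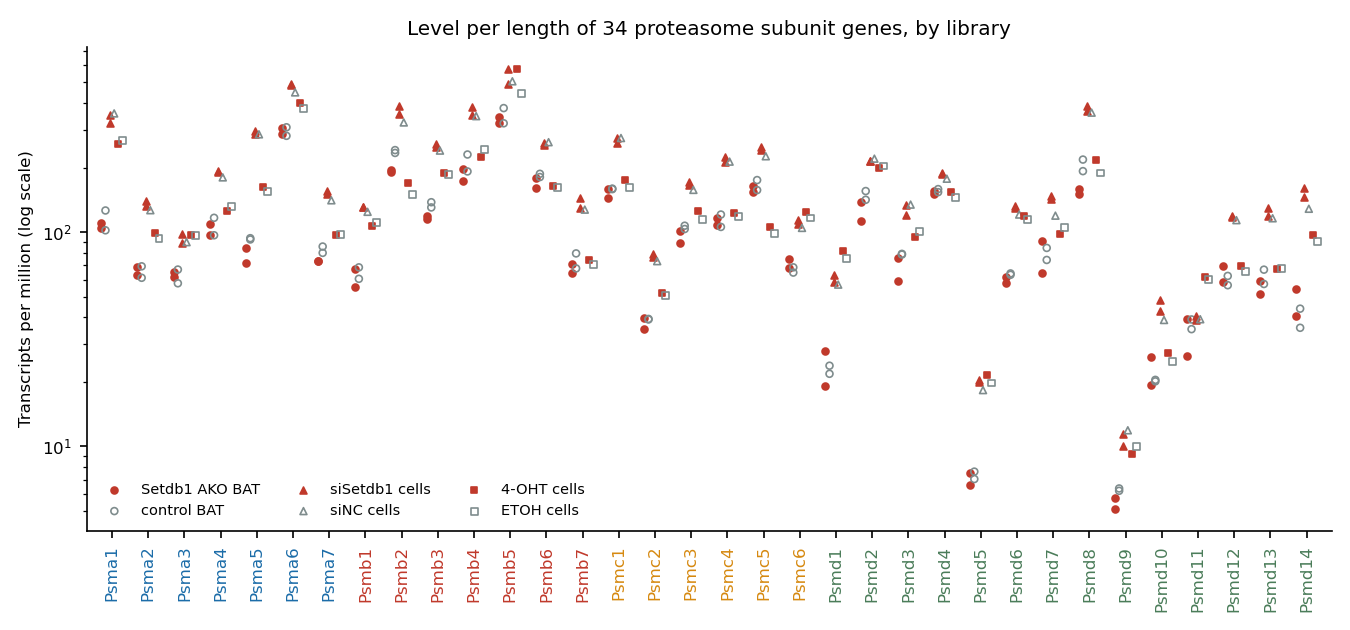
TPM (length-corrected level, log axis) of 34 proteasome subunit genes, with 1 point per library, filled for Setdb1 AKO BAT, siSetdb1 and 4-OHT and open for control BAT, siNC and ETOH, and gene names coloured by class (blue alpha ring, red beta ring, orange ATPases, green non-ATPases). Psmb5 and Psma6 stand at the top in every group and Psmd9 and Psmd5 at the bottom, and within an experiment the filled and open points of a gene lie close together compared with the distance between genes.

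As a share of all reads on genes, the 35 subunits took 0.356% and 0.345% in AKO BAT, against 0.374% and 0.370% in control BAT. They took 0.642% and 0.625% in siSetdb1 cells, against 0.605% in siNC cells, and 0.365% in 4-OHT cells, against 0.340% in ETOH cells. Exact binomial 95% intervals, which cover counting error only, were 0.342% to 0.359% over both AKO libraries and 0.367% to 0.377% over both control libraries. The share in AKO BAT was thus below that in control BAT with no overlap, although 2 libraries against 2 cannot reach an exact permutation p below 0.05. After the authors' scaling the order was not kept. The summed normalised counts were 60699 and 57121 in AKO BAT, against 58103 and 59981 in control BAT, and the groups overlapped. The median log2 fold change of the subunits was 0.04 as scaled by the authors, where that of all genes was 0.01. With libraries scaled to equal totals both moved down together, to -0.05 for the subunits and -0.08 for all genes, so the sign of the subunit median follows the scaling of the whole library.

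In BAT, deletion of Setdb1 in adipocytes came with no called change of any proteasome subunit. None of the 34 genes passed a false discovery rate of 0.05 in limma, and 0 passed in edgeR or DESeq2. The background was 1.68% of 14466 genes called by limma, 145 higher and 98 lower (126 higher and 135 lower with libraries scaled to equal totals), 1.73% by edgeR and 4.50% by DESeq2. At an unadjusted p under 0.05 the count was also 0 of 34 in each of the 3 tools, beside 17.7% of all genes by limma. Fitted changes ran from -0.30 (Psmd8) to 0.36 (Psmd14), with 20 positive (beside 50.6% of all genes) and 14 negative, and adjusted p-values from 0.319 to 0.987. The 95% interval lay within 1.5-fold either way for 30 of 34 subunits, beside 21.5% of all genes, and within 2-fold for all 34, beside 57.5%. The subunits are well expressed and such genes have narrower intervals, so these shares describe precision and not a property of the proteasome.

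The 19S non-ATPases held both ends of the range. Psmd14, the deubiquitinase of the cap, was at 865 and 1033 normalised counts in AKO BAT, against 783 and 696 in control BAT. Both AKO libraries stood above both controls (log2 fold change 0.36, SE 0.16, adjusted p = 0.319), which fails the test. Psmd8, a lid subunit, was at 3488 and 3256 normalised counts in AKO BAT, against 3721 and 4598 in control BAT. Both AKO libraries stood below both controls (-0.30, SE 0.17, adjusted p = 0.405), which fails as well. Psmd12, another lid subunit, was at 1178 and 1238 normalised counts in AKO BAT, against 947 and 1141 in control BAT (0.22, adjusted p = 0.527). The chaperone Psmd10 was at 216 and 258 in AKO BAT, against 190 and 204 in control BAT (0.26, adjusted p = 0.545). Both were higher in AKO BAT without overlap and failed the test. Psmd2, which docks ubiquitin-carrying substrates and shuttle proteins, was at 3432 and 3744 normalised counts in AKO BAT, against 3969 and 3943 in control BAT (-0.14, adjusted p = 0.665). The ubiquitin receptor Psmd4 gave 0.08, the scaffold Psmd1 0.13, the lid subunits Psmd3 -0.13, Psmd6 0.02, Psmd7 0.06, Psmd11 -0.09 and Psmd13 -0.06, and the chaperones Psmd5 0.05 and Psmd9 -0.10 on the log2 scale. Of these 9, only Psmd9 had groups that did not overlap, at 280 normalised counts in each AKO BAT library, against 292 and 310 in control BAT.

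Among the 19S ATPases, 5 of 6 were above 0 and none was called. Psmc6 had the largest fitted value, at 1805 and 1761 normalised counts in AKO BAT, against 1432 and 1653 in control BAT (0.21, adjusted p = 0.509). The AKO libraries of Psmc6 were above the controls without overlap. Psmc4 was at 1764 and 1691 in AKO BAT, against 1652 and 1578 in control BAT (0.10, adjusted p = 0.768), also without overlap. The other ATPases gave -0.04 (Psmc3), 0.04 (Psmc1 and Psmc2) and 0.05 (Psmc5), with overlap.

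In the alpha ring, 5 of 7 tested subunits were above 0, with a median of 0.07. Psma3 was at 1810 and 1711 normalised counts in AKO BAT, against 1646 and 1550 in control BAT (0.14, adjusted p = 0.663). Psma5 went the other way, at 719 and 749 in AKO BAT, against 782 and 842 in control BAT (-0.15, adjusted p = 0.664). Neither passed the test, though neither gene's groups overlapped. Psma1, Psma2, Psma4 and Psma6 gave 0.03 to 0.13 and Psma7 -0.07, all with overlapping groups.

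Of the 4 classes the beta ring had the median closest to 0, at -0.01, with a range of -0.19 to 0.04. The proteolytic subunit Psmb5 was at 2345 and 1944 normalised counts in AKO BAT, against 2155 and 1997 in control BAT. Psmb6 was at 2542 and 2013 in AKO BAT, against 2214 and 2334 in control BAT. Psmb7 was at 1662 and 1635 in AKO BAT, against 1721 and 1598 in control BAT. Each of the 3 overlapped between groups, and their fitted changes were 0.04, -0.01 and -0.01. Psmb2, a beta subunit without a proteolytic site, had the most negative change of the ring, at 1785 and 1546 in AKO BAT, against 1837 and 1945 in control BAT (-0.19, adjusted p = 0.566). Psmb1, Psmb3 and Psmb4, which carry no proteolytic site either, gave 0.03, -0.09 and -0.08 with overlapping groups.

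In all, 11 of 34 subunits had groups that did not overlap, 6 higher (beside 25.1% of all genes) and 5 lower (beside 24.9%). Libraries of 1 group also differed from each other (the values by BAT library are plotted). In AKO library 1, 7 of 7 beta subunits, 6 of 6 ATPases, 6 of 7 alpha subunits and 4 of 14 non-ATPases were higher than in AKO library 2, beside 7027 of all 14466 genes. In control library 1, 4 of 7 beta subunits, 1 of 6 ATPases, 5 of 7 alpha subunits and 4 of 14 non-ATPases were higher than in control library 2, beside 7132 of 14466. The median log2 difference of library 1 minus library 2 in the beta ring was 0.27 in AKO BAT and 0.05 in control BAT. In the non-ATPases it was -0.10 in both groups, and in the ATPases 0.05 in AKO BAT and -0.13 in control BAT, while over all genes it was 0.00 in both. The spread between the AKO libraries in the beta ring was thus larger than any fitted group difference of that ring. Without AKO library 1 the median over the 34 subunits was -0.02, and without control library 1 it was -0.01.

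**Figure D2:**
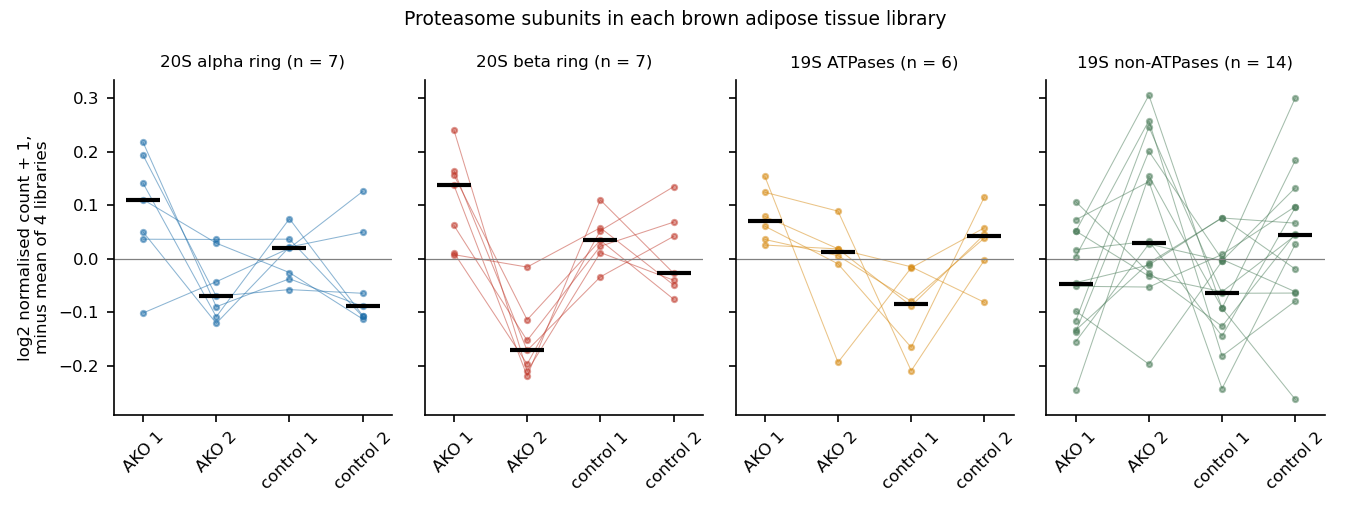
Each thin line is 1 subunit gene across the 4 BAT libraries, as log2 of normalised count + 1 minus the mean of the 4 libraries, in 4 panels by class, and black bars are medians. The beta ring panel shows all 7 genes higher in AKO 1 than in AKO 2, with the controls between the AKO medians, and no class separates AKO from control libraries.

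Markers of the cells of the tissue were read beside the subunits. Of 8 brown adipocyte markers 0 were called, and they summed to 21008 and 15627 CPM (reads over the library total, times a constant) in AKO BAT, against 19613 and 17717 in control BAT. Of 6 macrophage markers 0 were called (summed 182 and 233 CPM in AKO BAT, against 270 and 172 in control BAT). Erythroid markers summed to 742 and 727 CPM in AKO BAT, against 497 and 543 in control BAT, with 0 of 3 called by limma and Hba-a1 called by DESeq2. Endothelial markers summed to 606 and 573 CPM in AKO BAT, against 641 and 694 in control BAT, with 0 of 4 called. Skeletal muscle markers summed to 6.09 and 3.99 CPM in AKO BAT, against 2.48 in control library 1 and 23.7 in control library 2, where Myh4 had 117 reads and Ckm 36, with 0 of each in the other 3 libraries. T cell markers summed to 3.44 and 2.12 CPM in AKO BAT, against 6.55 and 2.44 in control BAT, and B cell markers to 0.664 and 0.561 CPM in AKO BAT, against 1.12 and 1.94 in control BAT. None of these markers that passed the filter was called, and no B cell marker passed it. Of 5 fibroblast and preadipocyte markers, Pi16 rose, at 229 and 562 normalised counts in AKO BAT, against 63.3 and 36.5 in control BAT (2.87, adjusted p = 0.0327). That call was lost without AKO library 2 (0.0888), without control library 1 (0.194), without control library 2 (0.279) and without a filter on low values (0.256). Dpp4 of the same list, at 40.1 and 64.0 normalised counts in AKO BAT, against 15.6 and 10.1 in control BAT, was called by DESeq2 alone. Dcn was at 2015 and 2182 normalised counts in AKO BAT, against 1490 and 1312 in control BAT (0.58, adjusted p = 0.111, limma). All 5 genes of the list were above 0, with a median of 0.58, and 3 were higher without overlap. The list summed to 230 and 341 CPM in AKO BAT, against 238 and 192 in control BAT, with overlap. In bulk tissue, fewer cells of a type and less RNA per cell cannot be told apart, and the part of these markers in the subunit values was not tested.

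In the siRNA experiment no subunit was called either, but the values leaned to the positive side. None of 34 passed in limma, edgeR or DESeq2, and the background by limma was 0.0394% of 15224 genes, or 6 genes, with 0.243% called by edgeR and 0.0723% by DESeq2. At an unadjusted p under 0.05 there was 1 of 34 by limma, beside 5.06% of all genes, 1 by edgeR and 0 by DESeq2. Of the 34, 28 were above 0, beside 49.3% of all genes, with a median log2 fold change of 0.07, against 0.00 over all genes. In 23 subunits both siSetdb1 libraries stood above the siNC library, beside 34.1% of all genes, and in 5 both stood below it, beside 33.8%. With 1 siNC library, its own deviation enters the value of every gene, so the 34 values are not independent. All 34 intervals lay within 1.5-fold either way, beside 50.8% of all genes.

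Psmd7, the lid partner of Psmd14, had the smallest p. It was at 2310 and 2307 normalised counts in siSetdb1 cells, against 1924 in siNC cells (0.26, SE 0.11, unadjusted p = 0.0358, adjusted p = 0.941). Psmd14 was at 2956 and 3144 in siSetdb1 cells, against 2584 in siNC cells (0.24, SE 0.11, adjusted p = 0.941). Both siSetdb1 libraries were above siNC for both genes of the pair, and neither passed the adjusted threshold. Psmb2 was at 3336 and 2959 in siSetdb1 cells, against 2790 in siNC cells (0.17, adjusted p = 0.941). Psmd10 was at 507 and 436 in siSetdb1 cells, against 408 in siNC cells (0.21, adjusted p = 0.947). Psmd5 was at 1062 and 1003 in siSetdb1 cells, against 944 in siNC cells (0.13, adjusted p = 0.952).

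The third assembly chaperone went the other way. Psmd9 was at 595 and 504 normalised counts in siSetdb1 cells, against 615 in siNC cells, the most negative of the 34 (-0.17, adjusted p = 0.950). Of the alpha ring, Psma7 was at 3424 and 3217 in siSetdb1 cells, against 3083 in siNC cells (0.11, adjusted p = 0.952), and Psma6 at 4276 and 4203 in siSetdb1 cells, against 3949 in siNC cells (0.10, adjusted p = 0.952). The proteolytic subunits gave 0.06 (Psmb5), -0.05 (Psmb6) and 0.09 (Psmb7), beside the median of 0.07. Psmb5 was at 3179 and 3594 in siSetdb1 cells, against 3241 in siNC cells, with siNC between the siSetdb1 libraries. Psmb6 was at 3413 and 3388 in siSetdb1 cells, against 3509 in siNC cells, and Psmb7 at 3191 and 3425 in siSetdb1 cells, against 3106 in siNC cells.

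Beside these values, macrophage markers were lower in siSetdb1 cells, though none passed in limma. They summed to 25.8 and 22.5 CPM in siSetdb1 cells, against 46.4 in siNC cells, and 5 of 6 were below 0. Lyz2, the most abundant of them, was at 244 and 166 normalised counts in siSetdb1 cells, against 527 in siNC cells (-1.38, adjusted p = 0.0904), and it was called by edgeR and DESeq2. Of 8 brown adipocyte markers 0 were called, with a median of -0.11 and sums of 12906 and 13027 CPM in siSetdb1 cells, against 12892 in siNC cells. Fibroblast and preadipocyte markers summed to 1664 and 2031 CPM in siSetdb1 cells, against 2092 in siNC cells, with 0 of 4 tested called. The part of these markers in the subunit values was not tested.

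The 4-OHT experiment has 1 library a group and so no test. Of the 34 subunits, 0 reached 1.5-fold, beside 10.4% of 13969 genes. Yet 32 of 34 were above 0, beside 50.2% of all genes, with a median log2 ratio of 0.17, against 0.00 over all genes. Scaling to total counts, which moved the median of all genes to -0.05, left 28 of 34 above 0, beside 41.3%, with a median of 0.11. All 6 ATPases, all 7 tested alpha subunits, 6 of 7 beta subunits and 13 of 14 non-ATPases were above 0, and Psmb4 (-0.01) and Psmd9 (-0.01) were the exceptions. All genes of a library share its handling, so a common shift of many genes is not repeated evidence.

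Psmb5 had the largest ratio, at 4708 counts in 4-OHT cells, against 3478 in ETOH cells (log2 ratio 0.48, counting interval 0.42 to 0.54). The other proteolytic subunits had smaller ratios, with Psmb6 at 2806 counts in 4-OHT cells, against 2643 in ETOH cells (0.13), and Psmb7 at 2301 in 4-OHT cells, against 2111 in ETOH cells (0.17). The counting intervals were 0.05 to 0.21 for Psmb6 and 0.08 to 0.25 for Psmb7. They cover counting error in these 2 libraries only and not the spread between libraries, so they do not show that Psmb5 differs from the other proteolytic subunits in its response. Psmd8 was at 6037 counts in 4-OHT cells, against 5018 in ETOH cells (0.31), and Psmb2 at 1863 in 4-OHT cells, against 1569 in ETOH cells (0.29). Psmc3, an ATPase, was at 2993 in 4-OHT cells, against 2591 in ETOH cells (0.25). Psmc1, an ATPase that helps to open the alpha ring gate, was at 3088 in 4-OHT cells, against 2720 in ETOH cells (0.23). Psmd1, the large scaffold of the base, was at 5401 in 4-OHT cells, against 4773 in ETOH cells (0.22). The chaperones Psmd5 (1426 in 4-OHT, 1243 in ETOH) and Psmd10 (365 in 4-OHT, 319 in ETOH) both had a ratio of 0.24.

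Markers of several cell types differed along with these ratios. All 6 macrophage markers were lower, summing to 1804 CPM in 4-OHT cells, against 3261 in ETOH cells, with Lyz2 at 43473 counts in 4-OHT cells, against 80947 in ETOH cells. All 8 brown adipocyte markers were above 0 (median 0.35), summing to 8029 CPM in 4-OHT cells, against 6592 in ETOH cells. The 3 fibroblast markers measured were below 0 and summed with the rest of their list to 8367 CPM in 4-OHT cells, against 8997 in ETOH cells. The part of these cells in the subunit ratios was not tested.

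**Figure D3:**
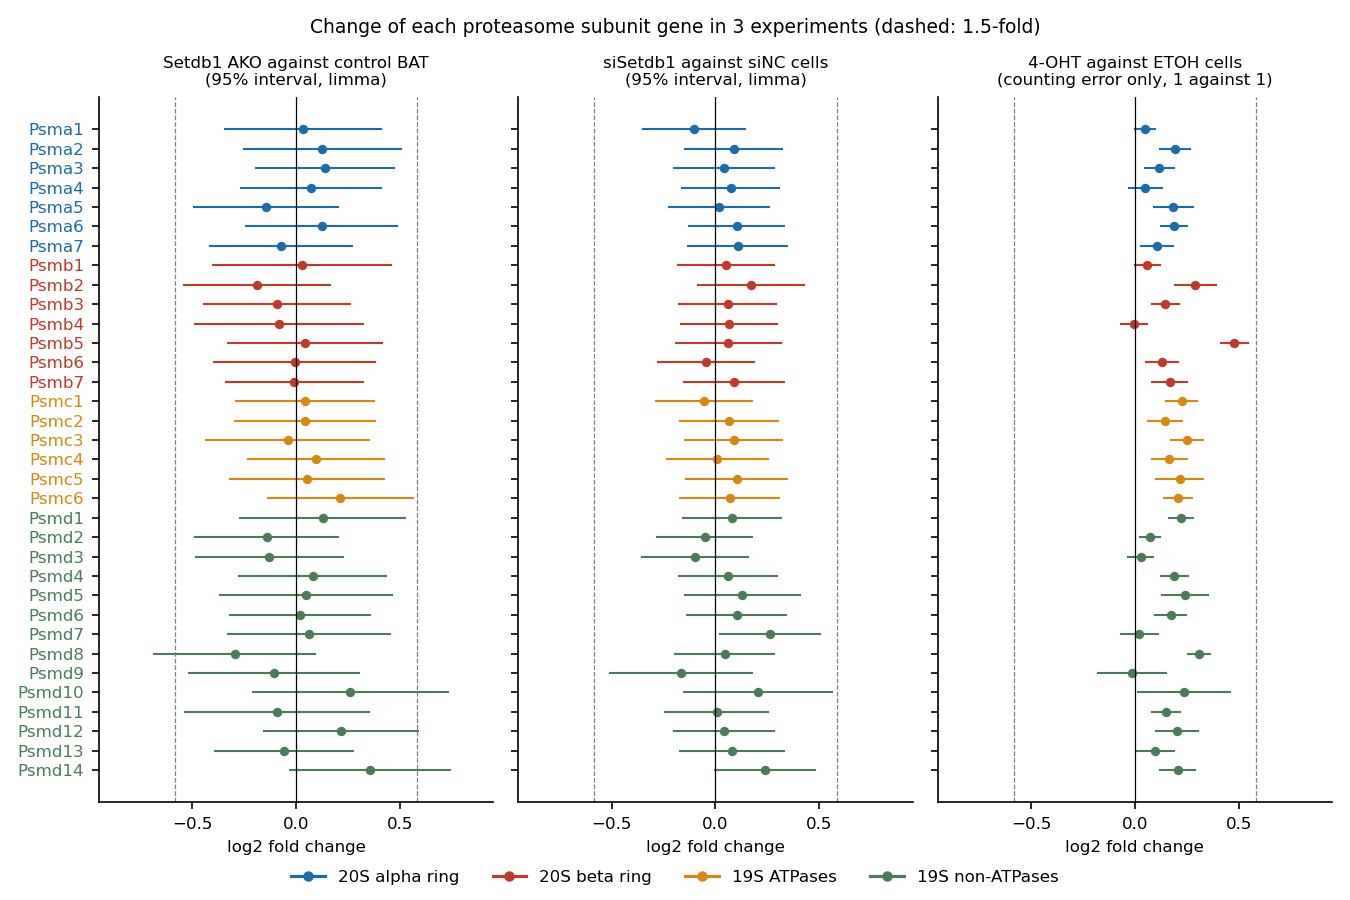
Log2 fold change of 34 subunit genes in 3 panels, coloured by class, with 95% intervals from limma for BAT and siRNA and counting intervals for the single 4-OHT and ETOH libraries, and dashed lines at 1.5-fold either way. BAT values lie on both sides of 0, with 30 of 34 intervals within 1.5-fold either way. Values in the siRNA panel lean to the right with 28 of 34 above 0, and 32 of 34 lie above 0 in the 4-OHT panel with Psmb5 farthest out.

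Set side by side, the 3 experiments share no samples. Of the 34 genes, 18 were above 0 in each experiment, beside 15.3% of 12215 genes measured in all 3, and 1 (Psmd9) was below 0 in each, beside 13.9%. With libraries scaled to equal totals, 9 of 34 were above 0 in BAT, so the count of 18 depends on the scaling. A shift shared by the genes of 1 library also enters the siRNA and 4-OHT values, so this count is not repeated evidence. Psmd14 was 0.36 in BAT, 0.24 in the siRNA experiment and 0.21 in the 4-OHT experiment. Psmd10 was 0.26, 0.21 and 0.24 in the same order, and Psmd8 was -0.30, 0.04 and 0.31. Psmb2 was -0.19, 0.17 and 0.29. Psmd14 and Psmd10 thus kept their sign over the experiments, while Psmd8 and Psmb2 did not, and none of these values passed a test.

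The genes around the proteasome were read from lists, with counts of genes that passed limma (the neighbouring lists are plotted). Genes of these lists that edgeR or DESeq2 called are named. Of 3 immunoproteasome subunits, which replace the proteolytic subunits in immune and interferon-treated cells, 0 were called in BAT and 0 in the siRNA experiment. In siSetdb1 cells Psmb9 was at 860 and 575 normalised counts, against 415 in siNC cells (0.76, adjusted p = 0.633). Psmb8 was at 1494 and 996 in siSetdb1 cells, against 813 in siNC cells (0.58, adjusted p = 0.924). Both siSetdb1 libraries were above siNC for these genes, and edgeR called Psmb9 (adjusted p = 0.0353), while DESeq2 did not. Psmb10, the remaining gene of the list, was at 1361 and 986 in siSetdb1 cells, against 1168 in siNC cells (-0.01), with siNC between the siSetdb1 libraries. In the 4-OHT experiment Psmb8 and Psmb9 were low, with Psmb8 at 61 counts in 4-OHT cells, against 83 in ETOH cells, and Psmb9 at 57 in 4-OHT cells, against 65 in ETOH cells, while Psmb10 was at 417 in 4-OHT cells, against 376 in ETOH cells (0.19). Psmb8 in BAT was 638 and 470 normalised counts in AKO, against 842 and 407 in control, and the AKO values lay between the controls.

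Activators and the inhibitor of the core (Psme1 to Psme4 and Psmf1) had 0 of 5 called in BAT and 0 of 5 in the siRNA experiment. Psme2, a part of the interferon-induced activator cap, had the largest ratio of the list in the 4-OHT experiment, at 2373 counts in 4-OHT cells, against 1790 in ETOH cells (0.45). Of the core assembly chaperones and 19S partners, 0 of 7 measured were called in either. Psmg3, a chaperone of the alpha ring, was at 65.9 and 48.5 normalised counts in AKO BAT, against 124 and 112 in control BAT (-1.04, unadjusted p = 0.00700, adjusted p = 0.122). Psmg3 in siSetdb1 cells was at 172 and 152 normalised counts, against 129 in siNC cells (0.32, adjusted p = 0.941).

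Of 5 genes of the NFE2L1 pathway, 0 were called in BAT and 0 in the siRNA experiment. Nfe2l1 itself was at 7526 and 8997 normalised counts in AKO BAT, against 7875 and 8053 in control BAT (0.05, adjusted p = 0.919). It was at 5757 and 6593 in siSetdb1 cells, against 6214 in siNC cells (-0.01, adjusted p = 0.990), and at 12265 counts in 4-OHT cells, against 10224 in ETOH cells (0.31). Nfe2l1 thus overlapped between the groups in BAT and in the siRNA experiment. Ddi2, the protease that cleaves NFE2L1, was at 751 and 816 in AKO BAT, against 959 and 1049 in control BAT (-0.36, adjusted p = 0.276). Ngly1, which removes its sugars, was at 788 and 865 in AKO BAT, against 712 and 587 in control BAT (0.35, adjusted p = 0.331). Neither list member passed, though the groups of both did not overlap.

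Of 17 ubiquitin and shuttle genes, 0 were called in BAT and 0 in the siRNA experiment. By limma 2 had an unadjusted p under 0.05 in each, beside 17.7% of all genes in BAT and 5.06% in the siRNA experiment. The deubiquitinase Uchl5, which binds the cap, was at 516 and 461 normalised counts in AKO BAT, against 329 and 351 in control BAT (0.52, adjusted p = 0.178). Rps27a, a ubiquitin-ribosome fusion gene with many processed copies, differed between replicates (1933 and 5045 normalised counts in siSetdb1) and is uncertain. Of 19 cytosolic chaperones 0 were called in BAT and 0 in the siRNA experiment. In BAT 15 were below 0, beside 7142 of all 14466 genes, with a median of -0.16. Of the 19, 4 were lower in AKO BAT without overlap (beside 24.9% of all genes) and 2 higher (beside 25.1%), so neither count exceeds the background. Control library 2 stood apart in this list, which summed to 6149 and 5303 CPM in AKO BAT, against 6330 in control library 1 and 7628 in control library 2. Hspa1a, a heat-inducible HSP70 gene, was at 188 and 200 normalised counts in AKO BAT, against 186 and 427 in control BAT. Hsph1, a partner of HSP70, was at 1362 and 1003 in AKO BAT, against 1684 and 2639 in control BAT (-0.85, adjusted p = 0.148), and DESeq2 called it (adjusted p = 0.0256).

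Of 13 genes of ER quality control, 1 fell in BAT and 0 were called in the siRNA experiment. Syvn1, the ubiquitin ligase of the endoplasmic reticulum that sends misfolded proteins to the proteasome, was at 774 and 974 normalised counts in AKO BAT, against 1666 and 2209 in control BAT. Both AKO libraries were below both controls (-1.14, adjusted p = 0.0424), and edgeR and DESeq2 called it too. It missed the threshold when any 1 of the 4 libraries was left out (adjusted p = 0.0600 to 0.336) and without a filter on low values (0.249). In siSetdb1 cells Syvn1 gave -0.06, and in the 4-OHT experiment it was at 1526 counts in 4-OHT cells, against 1338 in ETOH cells (0.23). The other 12 genes of the list did not pass in BAT, and 9 of 13 were above 0, beside 50.6% of all genes. At an unadjusted p under 0.05 by limma there were 5 of 13, beside 17.7%. Besides Syvn1 these were Hsp90b1 (0.45, adjusted p = 0.166), Pdia4 (0.58, adjusted p = 0.189), Herpud1 (0.42, adjusted p = 0.232) and Dnajb9 (-0.44, adjusted p = 0.254). Of the 13, 5 were higher without overlap (beside 25.1%) and 3 lower (beside 24.9%). In the 4-OHT experiment 12 of 13 were above 0, beside 50.2% of all genes, with a median of 0.32. Among them was Hspa5, the main chaperone of that compartment, at 26555 counts in 4-OHT cells, against 19557 in ETOH cells (0.48).

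**Figure D4:**
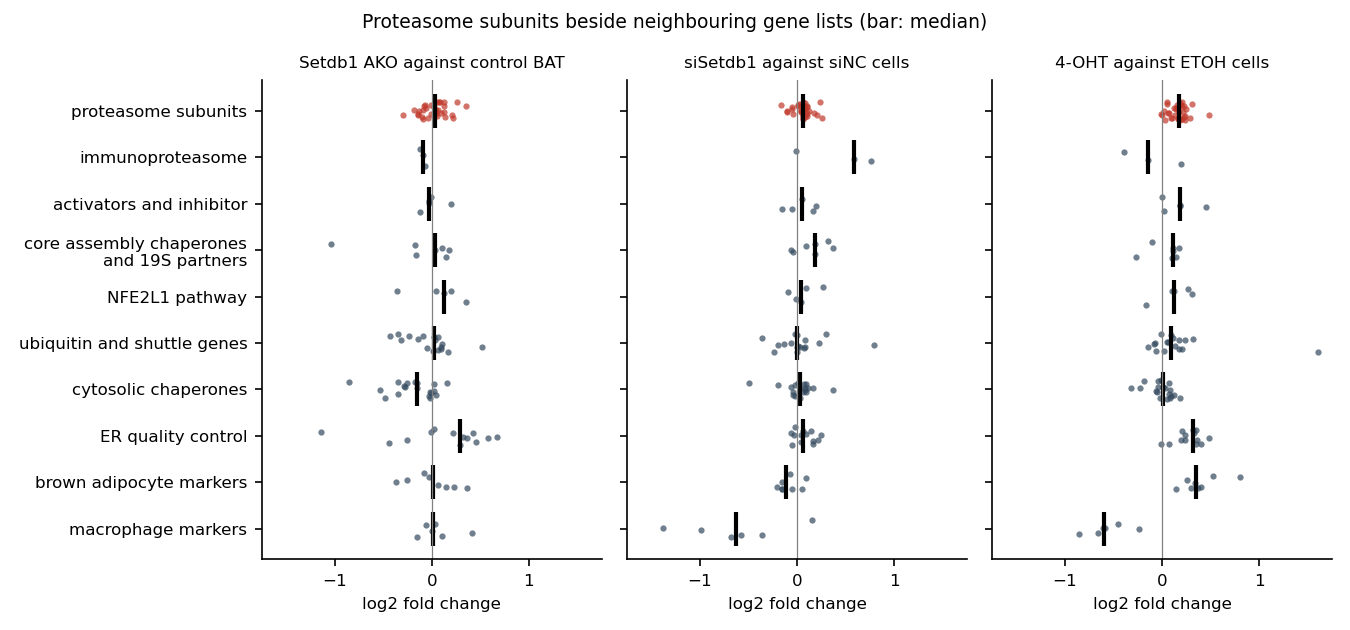
Each point is the log2 fold change of 1 gene, by list (rows) and experiment (columns), with proteasome subunits in red at the top and black bars at list medians. The subunits form a tight group in each column (medians 0.04, 0.07 and 0.17), while macrophage markers lie to the left in both cell experiments and brown adipocyte and ER quality control genes to the right in the 4-OHT experiment.

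The authors' deposited table for BAT gave the same count. In it, 0 of 35 subunits had an adjusted p below 0.05, beside 578 of 22721 genes called. The smallest subunit p there was that of Psmd14 (0.110). The authors' deposited tables for the cells compare 1 library with 1 library, so their calls are not used here. Without Psma8, the subunits' log2 fold changes ran from -0.003 to 0.49 (Psmb5) in the authors' deposited table for 4-OHT against ETOH. They ran from -0.07 to 0.31 in that for siSetdb1 library 1 and from -0.29 to 0.28 in that for siSetdb1 library 2.

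Some counts can include reads of other genes. In the GENCODE M21 transcripts, 5 subunit genes shared over 20% of their 31-base words with other annotated genes. Psmb5 shared 71.7%, Psma5 58.7%, Psmc1 32.2%, Psmd2 31.6% and Psmb3 21.7%. These other genes, where found in the tables, had at most 201 reads in any library, apart from Ripk1, a gene in its own right that shares words with Psmb3. How such reads were shared out between genes is not given in the sources used here, so the values of these 5 subunits are uncertain to that extent. Exons of 8 subunit genes overlap a gene on the opposite strand. The longest overlap is that of Psmd9 with the noncoding gene Gm26745 (1849 bases), beside 405 with Nek6 at Psmb7 and 342 with Sirt3 at Psmd13. The strand setting of the counting is not given in the sources used here, so the values of Psmd9 above carry this limit.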

How the data were processed

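RNA was measured in 9 mouse libraries. Per the labels, libraries were made by oligo(dT) selection with NEBNext Ultra II and sequenced in pairs on an Illumina instrument. Per the submitters' processing notes, GRCm38 (mm10), featureCounts 2.0.3, STAR 2.7.10a, DESeq2 1.36.0 and Trimmomatic 0.39 were used, with no role or order given. The annotation release, strand setting and treatment of reads that map to several places are not given in the sources used here.

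Per the file headers, the BAT and siRNA tables hold a normalised signal per gene, scaled by the authors, while the authors gave raw counts in the 4-OHT table, whose FPKM columns, scaled by the authors, were not used. The authors' deposited log2 fold change and p-value were used only where named as theirs, and the deposited gene length served for TPM. Dividing each signal column by the worth of 1 read gave whole reads within 0.05 for 99.9% to 100% of values. Both siRNA tables hold the siNC library, with equal reads in 19381 genes, and were joined through it (factor 1.0024).

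Tests used limma 3.58.1 (trend) on log2(normalised count + 1) within an experiment, for genes with at least 10 normalised counts in 2 BAT libraries or 1 siRNA library, with Benjamini-Hochberg adjustment over all genes and a false discovery rate of 0.05. This scale shrinks the fold changes of low genes. The single siNC library was taken to have the spread of the siSetdb1 pair. The 4-OHT ratio uses TMM-scaled CPM with a prior count of 2 and a minimum of 50 counts in either library. Alternatives were edgeR 4.0.16 and DESeq2 1.42.0 on the recovered reads, TMM and total count scaling, a pseudocount of 5, no filter, a filter of 50, a replicate block in BAT, and leaving out each library. Total count scaling was added after the data were seen. The steps were checked on simulated data.

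By edgeR, the coefficient of variation between libraries of a group, which that tool terms biological, was 0.192 (BAT) and 0.0949 (siRNA). The siRNA value rests on the siSetdb1 pair alone, and its spread may be technical. Values are printed for the 8 subunits with the smallest p or largest ratio in each experiment, the 3 proteolytic subunits and the lowest members, and for listed genes that were called or had a small p. The members and lists were chosen with earlier results of these data known. Same-numbered BAT libraries did not deviate together (r = -0.0254 over 9424 genes). With so few libraries a group, this correlation cannot exclude that the numbers pair them, and a replicate block was run as an alternative.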

Additional observations from a re-analysis of the deposited data

Results flagged for a closer look

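Psmb2, a beta ring subunit, was lower than both control libraries in both Setdb1 AKO BAT libraries (log2 fold change -0.19) and higher than the siNC library in both siSetdb1 libraries (0.17). It was picked out because every library of each experiment lay on its own side. Such separation is common, as 24.9% of all genes were lower without overlap in BAT and 34.1% were higher in the siRNA experiment. The nearest BAT libraries were at 1785 (AKO) and 1837 (control) normalised counts. The difference between the experiments was not tested, and neither value passed limma.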

How the results depend on the processing

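No proteasome subunit was called under any alternative run, in BAT or in the siRNA experiment, and none reached 1.5-fold in the 4-OHT experiment. The number of genes called in BAT was 243, and 651 with DESeq2, 11 without a filter and 22 to 157 when 1 library was left out. In the siRNA experiment it was 6, and 37 with edgeR, 11 with DESeq2, 65 with TMM scaling, 55 with total count scaling, 29 with a filter of 50 and 0 without a filter. Leaving out a siSetdb1 library leaves 1 against 1 and no test, and the siNC library could not be left out. The median of the subunits in BAT was 0.037, -0.046 with total count scaling and -0.022 to 0.067 with 1 library left out. In the siRNA experiment the median was 0.066, and 0.089 with total count scaling. In the 4-OHT experiment it was 0.17, and 0.11 with total count scaling, and 3726 genes passed 1.5-fold with a filter of 10 counts, against 1452 with 50. With Psmc3ip added, the spread of levels per length was 76.9%. The replicate block in BAT called 299 genes and 0 subunits and left the median at 0.04, so the block changed no subunit's call. Psmb6 changed sign with edgeR (0.0093) and DESeq2 (0.0036). With total count scaling 9 of 34 subunits were above 0 in BAT, against 20 as scaled by the authors, so more signs turned under that setting. With 1 BAT library left out, the log2 fold changes of subunits that changed sign spanned Psmd6 -0.034 to 0.071, Psmd11 -0.29 to 0.11, Psma1 -0.093 to 0.16, Psma2 -0.026 to 0.28, Psma6 -0.0089 to 0.25, Psmb1 -0.20 to 0.25, Psmb5 -0.094 to 0.18, Psmc3 -0.21 to 0.13, Psmd1 -0.052 to 0.31, Psmd7 -0.11 to 0.23, Psma7 -0.16 to 0.014, Psmb3 -0.20 to 0.016, Psmb4 -0.26 to 0.096, Psmb6 -0.18 to 0.16, Psmb7 -0.062 to 0.045, Psmc1 -0.018 to 0.10, Psmc2 -0.023 to 0.11, Psmc5 -0.090 to 0.19, Psmd4 -0.0060 to 0.17, Psmd5 -0.071 to 0.17 and Psma4 -0.00034 to 0.14. None of these was called in any fit. The cause of these shifts was not tested. In BAT, 95% intervals reached past 1.5-fold for 4 of 34 subunits, so changes of that size were not resolved for these.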
